A study of Mus musculus with 4 samples.

Results

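The genes examined were the soluble glutathione S-transferases (GST), the UDP-glycosyltransferases of families 1 to 3 (UGT) and the sulfotransferases (SULT), which together carry out most of phase II conjugation in the liver. Members were chosen by symbol (Gsta, Gstm, Gstp, Gstt, Gsto and Gstk, Ugt1a, Ugt2a, Ugt2b and Ugt3a, and every numbered Sult), the transcript rows of each gene were summed, and a mean of at least 1 FPKM over the 4 libraries was required. FPKM is a fragment count scaled to transcript length and library depth. Of 58 genes with such symbols, 38 reached that level (18 of 20 GST, 15 of 20 UGT and 5 of 18 SULT), among 9820 measured genes of 23920 in the table. The selection rule uses the symbol and the mean level, not the difference between the groups.

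Whole liver of wild-type mice (genotype SREBP1c WT, 2 libraries) was compared with liver of mice without SREBP1c (genotype SREBP1c KO, 2 libraries), SREBP1c being the insulin-responsive transcription factor of fatty acid synthesis encoded by Srebf1. Every animal was a C57BL/6 male of 12 weeks that had gone without food for 24 h and had then been given food again for 12 h. The sources used here do not say how the deletion was made, which cells it covers or whether each library came from another animal. The p-values therefore measure only the spread between these libraries, which may be technical.

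Phase II enzymes attach a polar group to a xenobiotic, a hormone, a bile acid or a product of lipid peroxidation, so that it can be exported in bile or urine. GST enzymes add glutathione, UGT enzymes of families 1 and 2 add glucuronic acid from UDP-glucuronic acid, and SULT enzymes add a sulfate group from the donor PAPS. Many of these genes sit in tandem clusters of close paralogs, and the liver expresses several of them among its most abundant transcripts. Their transcription is known to respond to the oxidant sensor NRF2, to nuclear receptors such as CAR and PXR, and, in mouse liver, to sex and to inflammation.

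As the targeted gene, Srebf1 had 63.7 and 58.2 FPKM in WT against 8.63 and 6.97 FPKM in KO (log2 difference −2.82, SE 0.13, limma adjusted p = 0.00172). With a WT library left out that adjusted p was 0.136 (without WT replicate 1) or 0.0923 (without WT replicate 2), and it was 0.0883 without a filter on low values. Across all 9820 genes 7 passed the limma threshold of 0.05 (0.0713%), and none of them was a conjugation gene. Steps in the low FPKM values implied depths of about 20.55 to 22.65 M fragments per library. The acute phase markers (Saa1, Saa2, Saa3, Orm1, Orm2, Lcn2, Hp, Mt1 and Mt2) summed to 4105 and 5262 FPKM in WT, 3366 FPKM in KO replicate 1 and 11485 FPKM in KO replicate 2, the highest sum by far. Results are given library by library, and the part of the acute phase in them was not tested.

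Hepatocyte markers summed to between 46124 and 50307 FPKM in every library, with all 12 of 12 measured. Their single log2 differences ran from −0.70 (Cps1) to 0.35 (Tat). Both KO libraries lay below both WT libraries for 5 of the 12 (all genes 16.4%) and above them for 2 (all genes 22.4%). Kupffer cell markers (8 of 8 in the table measured) summed to 165 and 138 FPKM in WT and to 142 and 231 FPKM in KO, highest in KO replicate 2. All 7 cholangiocyte markers (3 of them measured) summed to 25.9 and 24.0 FPKM in WT against 50.9 and 42.5 FPKM in KO. Most of that sum was Spp1 alone, with 21.3 and 20.2 FPKM in WT against 45.5 and 37.0 FPKM in KO. Krt19 had 0.889 and 0.861 FPKM in WT against 2.23 and 1.28 FPKM in KO, and Sox9 overlapped between the groups. Endothelial markers (7 of 7 measured) summed to 48.8 and 51.9 FPKM in WT against 54.1 and 65.5 FPKM in KO, with 6 of the 7 highest in KO replicate 2. Stellate markers (7 of 7 measured) summed to between 47.7 and 53.0 FPKM in every library, and none of the 7 lymphocyte markers reached a mean of 1 FPKM. None of these marker genes was at 0 in all 4 libraries. The part of cell makeup in the results below was not tested, and in whole tissue fewer cells of a type cannot be told apart from less RNA per cell.

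None of the 38 conjugation genes passed the limma threshold for KO against WT, and the smallest adjusted p was 0.165, for Ugt1a9. At an unadjusted limma p under 0.05, 4 genes were lower (Ugt1a9, Gstt3, Sult1d1 and Sult5a1) and 0 were higher. Of all 9820 genes, 319 (3.25%) were lower at that level and 442 were higher. The sign of the log2 difference was negative for 33 of the 38 (17 of 18 GST, 13 of 15 UGT, 3 of 5 SULT), while 45.4% of all genes had a negative sign. The median log2 difference was −0.26 for GST, −0.15 for UGT and −0.09 for SULT, against 0.02 over all genes tested. Log2 differences (KO minus WT) were taken on log2(FPKM + 1), so changes of low genes are understated.

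The negative signs were found largely in KO replicate 2. That library was the lowest of the 4 for 28 of 38 conjugation genes (15 of 18 GST, 11 of 15 UGT, 2 of 5 SULT), where it was the lowest for 26.8% of all genes. KO replicate 2 lay below both WT libraries for 32 of the 38 (84.2%, all genes 33.9%), and KO replicate 1 did so for 12 of them (31.6%, all genes 32.8%). With KO replicate 2 left out, the median log2 difference was 0.04 for GST, −0.00 for UGT and −0.06 for SULT, and 20 of 38 were negative. With KO replicate 1 left out, 34 of 38 were negative and 11 passed the limma threshold, against 3.12% of all genes in that fit, which rests on a single KO library assumed to vary like WT.

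**Figure D1:**
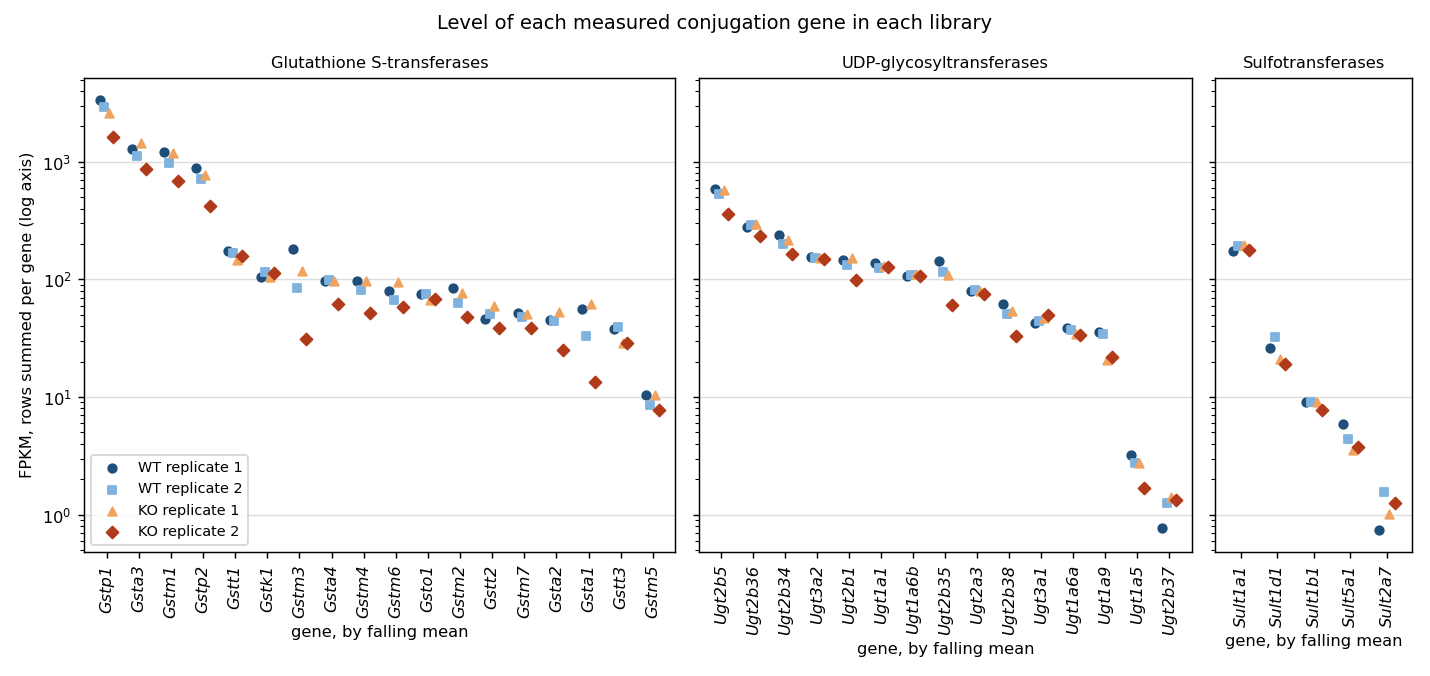
FPKM of each of the 38 measured genes in the 4 libraries, on a log axis, by family and by falling mean; each point is 1 library. KO replicate 2 (diamonds) is the lowest point for 28 of the 38 genes (all genes 26.8%). Both KO libraries lie below both WT libraries for 12 of the 38 (all genes 16.4%), with Ugt1a9, Gstt3, Sult1d1 and Sult5a1 among them.

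Both KO libraries lay below both WT libraries for 12 of the 38 genes, and 16.4% of all genes did so. These were Gsta4, Gsto1, Gstp1, Gstt1 and Gstt3 among GST, Ugt1a5, Ugt1a6a, Ugt1a9, Ugt2b35 and Ugt3a2 among UGT, and Sult1d1 and Sult5a1. Both KO libraries lay above both WT libraries for 2 genes, Ugt2b37 and Ugt3a1, and 22.4% of all genes did so.

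The class pi enzymes Gstp1 and Gstp2, neighbours on chromosome 19 (mm10, 4035411 to 4037912 and 4040288 to 4042221), were the most and the fourth most abundant GST transcripts. The Gstp1 enzyme handles a wide range of electrophiles. Fragments of the pair are hard to assign, since the coding sequences have 630 bases each and are 98.1% identical, with 12 differing positions. Of all stretches of 50 bases in the Gstp1 transcript, 62.3% occur unchanged in Gstp2, and 64.3% in the other direction. The first 120 coding bases are shown because they hold 6 of the 12 positions (GENCODE M21 transcripts on GRCm38, minus strand; chr19:4037314-4037863 for Gstp1 and chr19:4041608-4042165 for Gstp2, introns skipped), with the differing bases in capitals and all others identical.
Gstp1: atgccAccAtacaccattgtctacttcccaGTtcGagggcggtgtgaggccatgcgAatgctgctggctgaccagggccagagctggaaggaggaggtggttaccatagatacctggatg
Gstp2: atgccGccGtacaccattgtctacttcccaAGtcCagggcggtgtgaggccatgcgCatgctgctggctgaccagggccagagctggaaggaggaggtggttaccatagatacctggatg

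Gstp1 had 3354 and 2939 FPKM in WT against 2619 and 1609 FPKM in KO. The groups did not overlap, and KO replicate 2 was the lowest by a wide margin. The means were 3147 ± 293 and 2114 ± 714 FPKM (SD, n = 2 each), a ratio of 0.672, with a log2 difference of −0.61 (95% interval −1.26 to 0.04, limma adjusted p = 0.644). Leaving out KO replicate 2 gave −0.26, and leaving out KO replicate 1 gave −0.96. Gstp2 had 893 and 710 FPKM in WT against 766 and 423 FPKM in KO, so KO replicate 1 lay between the WT libraries (log2 difference −0.48, limma adjusted p = 0.741, and −0.06 with KO replicate 2 dropped). Summed as 1 feature, the pair had a log2 difference of −0.59 (limma adjusted p = 0.663).

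The share of Gstp1 in the summed FPKM of all measured GST was 42.6% and 43.7% in WT and 37.0% and 37.1% in KO. On this scale, as in level, both KO libraries lay below both WT libraries, and the KO libraries were alike in share but not in level. The GST sum was 7880 and 6729 FPKM in WT against 7083 and 4338 FPKM in KO, or 7305 ± 814 against 5710 ± 1941 FPKM (SD, n = 2 each). Within that sum Gstp1, Gsta3 and Gstm1 made up 74.2% of the mean.

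The class mu genes form a cluster on chromosome 3, from Gstm5 (107895854) to Gstm4 (ending at 108045179). Gstm1, the major hepatic mu enzyme, had 1222 and 979 FPKM in WT against 1188 and 692 FPKM in KO. All 7 Gstm genes were lowest in KO replicate 2, and none had both KO libraries below both WT libraries. Set against the WT mean on the log2(FPKM + 1) scale, KO replicate 1 had a Gstm median of 0.12 and KO replicate 2 one of −0.60. Gstm3, singled out after its values were seen, varied most of all 38 genes, 5.81-fold from highest to lowest library, with 180 and 84.6 FPKM in WT against 118 and 30.9 FPKM in KO (log2 difference −1.01, SE 0.64). It was −0.06 when KO replicate 2 was dropped and −1.96 when KO replicate 1 was. The WT libraries alone were thus far apart for Gstm3. The other Gstm genes had means over the 4 libraries of 9.31 FPKM (Gstm5) to 82.0 FPKM (Gstm4).

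All 4 class alpha genes were also lowest in KO replicate 2. Gsta3 (chromosome 1, 21240565 to 21265575), the most abundant alpha transcript, had 1274 and 1122 FPKM in WT against 1443 and 871 FPKM in KO. KO replicate 1 was thus the highest and KO replicate 2 the lowest of the 4, and the log2 difference of Gsta3 was −0.09 (SE 0.26), with 0.27 without KO replicate 2. Gsta4, which conjugates the lipid peroxidation product 4-hydroxynonenal, had 96.2 and 98.5 FPKM in WT against 96.1 and 61.5 FPKM in KO. Its groups did not overlap only by the narrow margin of KO replicate 1. Gsta1, also singled out after its values were seen, had 55.8 and 32.8 FPKM in WT against 61.6 and 13.5 FPKM in KO. Of its stretches of 50 bases 89.7% occur in transcripts of other genes, so its level is uncertain, and the same holds for Gsta2 (63.5%). For the alpha genes KO replicate 1 had a median of 0.25 relative to the WT mean, and KO replicate 2 one of −0.72.

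Of the theta, omega and kappa genes, Gstt2 had KO replicate 1 highest (59.99 FPKM) and KO replicate 2 lowest (38.5 FPKM), like most alpha genes, and the other 4 did not. Gstt3 (chromosome 10, 75774117 to 75781422) had 38.1 and 39.3 FPKM in WT against 29.0 and 28.8 FPKM in KO. The KO libraries were nearly equal for Gstt3 and lay well below WT, with means of 38.7 ± 0.893 and 28.9 ± 0.107 FPKM (SD, n = 2 each), a ratio of 0.747. The log2 difference was −0.41 (95% interval −0.65 to −0.17, limma adjusted p = 0.405), and leaving out single libraries gave −0.43 to −0.39. Gstt3 shares 26.0% of its stretches of 50 bases with the predicted gene Gm20441. Gstt1, a neighbouring theta gene whose enzyme acts on halogenated hydrocarbons, had 173 and 169 FPKM in WT against 146 and 158 FPKM in KO. Gsto1, which reduces dehydroascorbate, had 75.0 and 74.5 FPKM in WT against 67.2 and 67.9 FPKM in KO (log2 difference −0.14). Gstk1, an enzyme of mitochondria and peroxisomes, overlapped between the groups, with 105 and 117 FPKM in WT against 105 and 113 FPKM in KO.

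**Figure D2:**
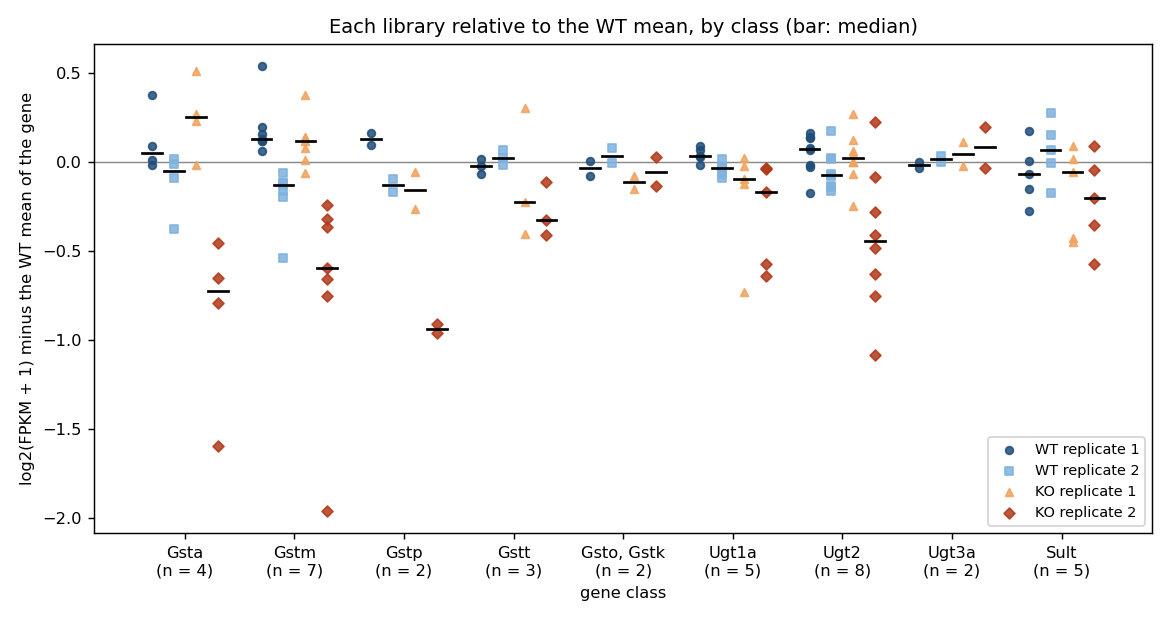
Each library relative to the WT mean of the gene, on the log2(FPKM + 1) scale, by gene class; each point is 1 gene in 1 library and the black bar is the class median. In KO replicate 2 the medians of Gsta, Gstm and Gstp are −0.72, −0.60 and −0.94, while in KO replicate 1 they are 0.25, 0.12 and −0.16.

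Among the glycosyltransferases, the Ugt1a genes need care, since each is a separate first exon spliced to the same remaining exons on chromosome 1. Of the stretches of 50 bases in their transcripts, 58.2% (Ugt1a1) to 100% (Ugt1a6a) occur in another gene, so the levels of the single genes are uncertain. Ugt1a9, which glucuronidates phenols (88070779 to 88220002), had the smallest limma p of the 38 genes, a test that moderates the spread across genes. It had 35.8 and 34.1 FPKM in WT against 20.65 and 22.04 FPKM in KO, and no KO library came near WT. The means were 34.9 ± 1.19 and 21.3 ± 0.983 FPKM (SD, n = 2 each), a ratio of 0.611, with a log2 difference of −0.69 (95% interval −0.94 to −0.43, limma adjusted p = 0.165). With any library left out the difference lay between −0.73 and −0.64. Ugt1a9 passed the limma threshold without KO replicate 1 (adjusted p = 0.0328) and without KO replicate 2 (adjusted p = 0.0381), and it did not pass with either WT library left out. These passes belong to fits in which 3.12% and 1.19% of all genes passed.

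The other transcripts of the same locus had smaller log2 differences than Ugt1a9, a contrast that was not tested. Ugt1a1, which glucuronidates bilirubin, had 138 and 125 FPKM in WT against 129 and 128 FPKM in KO. Ugt1a6b had 108 and 110 FPKM in WT against 111 and 106 FPKM in KO. Ugt1a6a, whose stretches of 50 bases all occur in annotated transcripts of Ugt1a7c, had 38.8 and 37.1 FPKM in WT against 34.7 and 33.6 FPKM in KO. Ugt1a5 was far lower in level, with 3.24 and 2.75 FPKM in WT against 2.73 and 1.68 FPKM in KO. Ugt1a9 made up 11.08% and 11.03% of the measured Ugt1a sum in WT and 6.93% and 7.56% in KO. Summed as 1 feature, the Ugt1a genes differed by −0.10 (limma adjusted p = 0.872).

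The upstream sequence of Ugt1a9 is shown because Ugt1a9 had the smallest adjusted p of the 38 genes. The stretch holds the 120 bases before the RefSeq start (GRCm38.p6, plus strand, chr1:88070659-88070778), with no capitals because none of the 4 motifs searched occurs in it.
Ugt1a9: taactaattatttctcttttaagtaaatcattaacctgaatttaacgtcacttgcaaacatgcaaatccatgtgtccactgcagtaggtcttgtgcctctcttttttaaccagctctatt

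The Ugt2 genes, which conjugate steroids and bile acids, lie in a cluster on chromosome 5 (86889770 to 87424203). Ugt2b5, the most abundant UGT transcript, had 589 and 527 FPKM in WT against 574 and 360 FPKM in KO. Ugt2b36 had 279 and 289 FPKM in WT against 296 and 234 FPKM in KO, and Ugt2b34 239 and 198 FPKM in WT against 218 and 164 FPKM in KO. For each of these 3, KO replicate 1 lay within or above the WT range and KO replicate 2 below it. The same held for Ugt2b1, with 146 and 133 FPKM in WT against 151 and 99.2 FPKM in KO, and for Ugt2b38, with 62.4 and 51.3 FPKM in WT against 53.9 and 33.1 FPKM in KO. Ugt2b5 and Ugt2b38 share 34.8% and 34.1% of their stretches of 50 bases with each other.

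Ugt2b35 was the Ugt2 gene with both KO libraries lowest, at 145 and 115 FPKM in WT against 109 and 60.3 FPKM in KO (ratio 0.651, log2 difference −0.66, 95% interval −1.35 to 0.02, limma adjusted p = 0.644). Its difference was −0.25 without KO replicate 2. Ugt2a3 was level across the libraries, between 75.4 and 80.7 FPKM. Of all 38 genes, Ugt3a2 varied least, 1.02-fold from highest to lowest library, with 154 and 153 FPKM in WT against 150.8 and 149.98 FPKM in KO. Its partner Ugt3a1, which uses UDP-N-acetylglucosamine, had 42.4 and 44.5 FPKM in WT against 47.1 and 50.005 FPKM in KO, with groups that did not overlap (log2 difference 0.16, limma adjusted p = 0.759). The UGT sum was 2059 and 1903 FPKM in WT against 1979 and 1519 FPKM in KO, a mean of 1981 ± 111 against 1749 ± 325 FPKM (SD, n = 2 each).

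**Figure D3:**
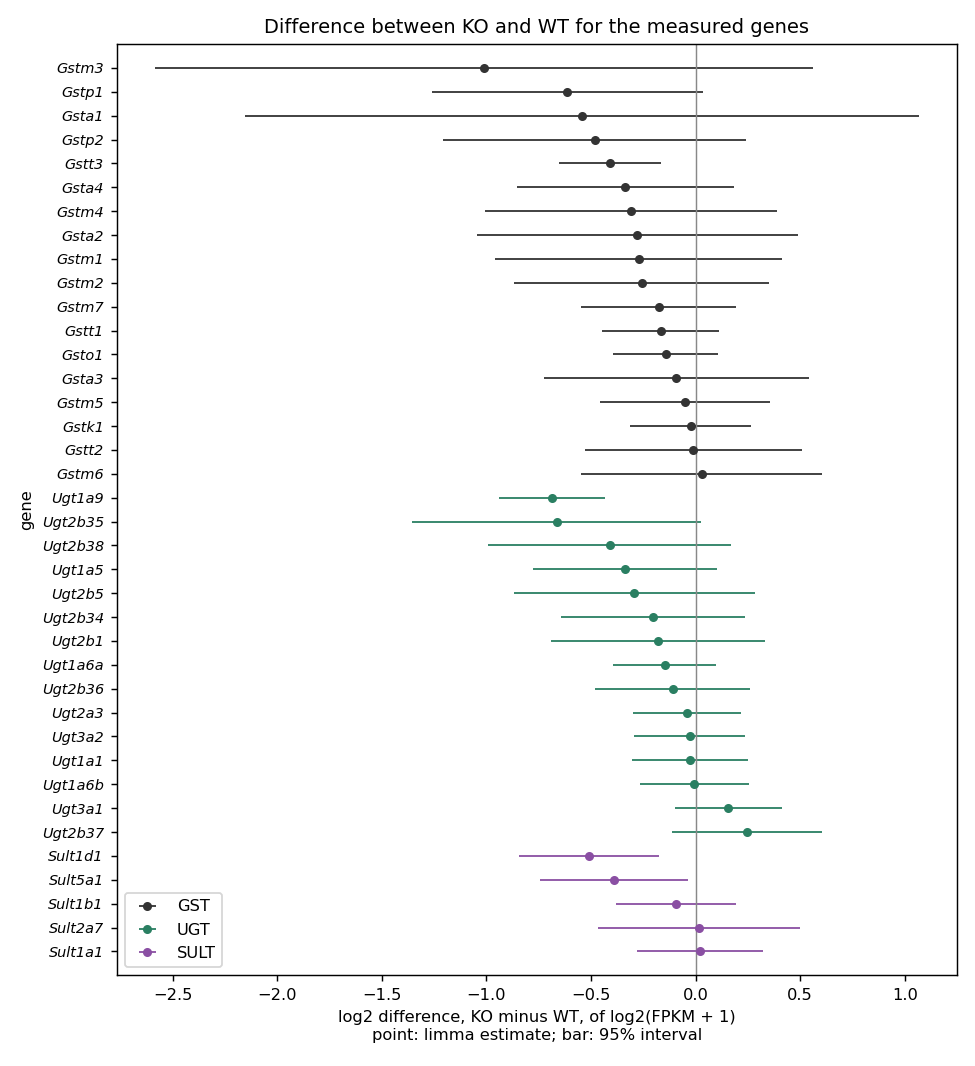
Log2 difference of KO minus WT with its 95% limma interval for each of the 38 genes, by family. The intervals of Gstt3, Ugt1a9, Sult1d1 and Sult5a1 lie below 0, none lies above 0, and those of Gstm3 and Gsta1 are the widest.

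Sulfotransferases were dominated by Sult1a1, the phenol sulfotransferase, which made up 82.7% of the mean SULT sum. Sult1a1 had 175 and 193 FPKM in WT against 195 and 178 FPKM in KO, with overlapping groups (log2 difference 0.02, 95% interval −0.28 to 0.32). Sult1d1 (chromosome 5, 87554650 to 87569006), which acts on catecholamines, had 25.9 and 32.2 FPKM in WT against 20.9 and 19.1 FPKM in KO. Both KO libraries were lower, with means of 29.0 ± 4.44 and 19.99 ± 1.28 FPKM (SD, n = 2 each), a ratio of 0.689 and a log2 difference of −0.51 (95% interval −0.84 to −0.18, limma adjusted p = 0.439). It ranged from −0.66 without WT replicate 1 to −0.36 without WT replicate 2. Sult5a1 had 5.91 and 4.42 FPKM in WT against 3.54 and 3.79 FPKM in KO (log2 difference −0.39, limma adjusted p = 0.607). Both KO libraries were again lower, and without WT replicate 1 the difference was −0.22.

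Sult1b1, which sulfates thyroid hormones, had 9.06 and 9.01 FPKM in WT against 9.15 and 7.71 FPKM in KO. The SULT sum was 217 and 240 FPKM in WT against 230 and 210 FPKM in KO, with overlapping groups. Sult1d1 made up 11.9% and 13.4% of that sum in WT and 9.09% and 9.08% in KO. Most sulfotransferase genes were hardly detected: 13 of the 18 stayed below 1 FPKM, and 8 were listed at 0 in every library. A listed 0 need not mean absence, since exact 0 values can also be failed estimates. The hydroxysteroid sulfotransferases were low, with Sult2a7 just inside the 1 FPKM minimum (0.737 and 1.55 FPKM in WT, 1.02 and 1.246 FPKM in KO, about 15 to 29 fragments per library). Ugt2b37 (mean 1.19 FPKM) was the next inside, while Sult1c2 (0.774 FPKM) and Ugt1a2 (0.435 FPKM) were just outside. Sult1e1, the oestrogen sulfotransferase, had 0.378 and 0.455 FPKM in WT against 0.303 and 0.0830 FPKM in KO.

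**Figure D4:**
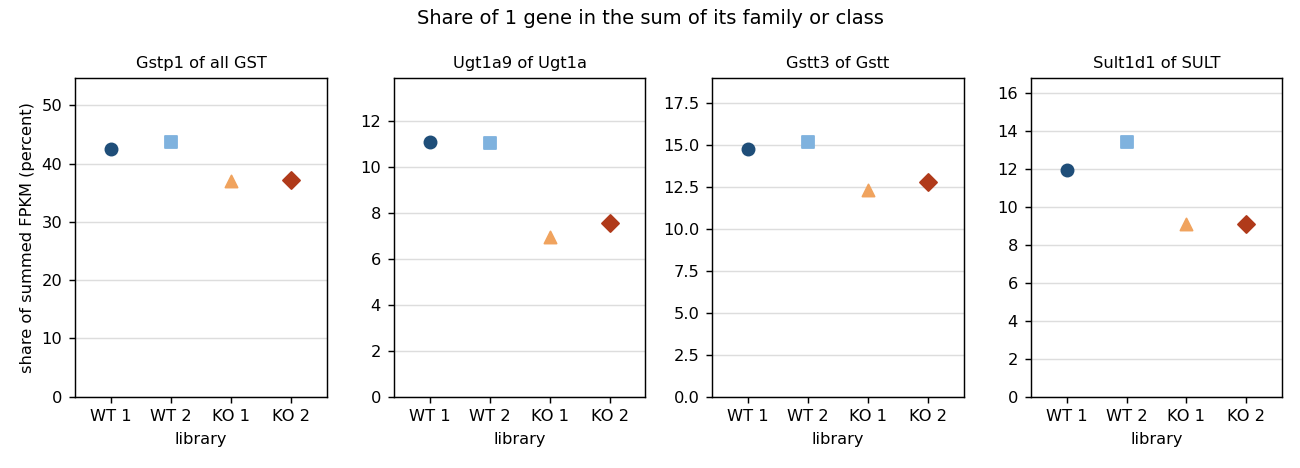
Share of 1 gene in the summed FPKM of its family or class in each library, in percent, with axes from 0; each point is 1 library. These 4 shares were picked from a larger number after their values were seen. Of those not shown, both KO libraries lay above both WT libraries for Gsta3 and Gstm1 of GST and for Sult1a1 of SULT. Sult1a1 made up 80.8% and 80.3% in WT against 85.0% and 84.9% in KO. The groups overlapped for Gstm3 of Gstm, Gstp1 of the Gstp pair, Ugt2b5, Ugt2b36 and Ugt2b34 of UGT, and Sult1b1 of SULT. In each panel both KO points lie below both WT points, for example Ugt1a9 at 6.93% and 7.56% in KO against 11.08% and 11.03% in WT.

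Upstream sequences were searched on both strands for 4 motifs, in RefSeq windows of 250 bases before to 50 after the start (GRCm38.p6), which exist for 33 of the 38 genes. The core of the antioxidant response element bound by NRF2 (TGACNNNGC) matched in 3 of the 33, or 9.09%, where 17.4% of all measured genes and 14.0% of all genes had a match. The core of the xenobiotic response element (GCGTG) matched in 8 of 33 (24.2%, measured genes 56.6%, all genes 35.2%). A sterol regulatory element (TCACNCCAC), the kind of site to which SREBP proteins bind, matched in 3 of 33 (9.09%, measured genes 1.53%, all genes 1.44%). Of these, the matches in the neighbouring paralogs Gstm6 and Gstm7 lie in nearly the same sequence, so they are not independent of each other. The HNF1 consensus matched in 0 of 33 and in 0.0111% of all genes. At Ugt1a5 and Gstm5 the xenobiotic core overlaps another of the 4 motifs. A match is a description of the letters and not evidence of binding.

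The sterol regulatory element matches are shown because the factor removed here belongs to the SREBP family. They fell in Ugt1a5 (plus strand, chr1:88165892-88166011) and before inner starts of Gstm7 (minus strand, chr3:107931615-107931644) and Gstm6 (minus strand, chr3:107943583-107943612), with the match, read on the opposite strand, in capitals.
Ugt1a5: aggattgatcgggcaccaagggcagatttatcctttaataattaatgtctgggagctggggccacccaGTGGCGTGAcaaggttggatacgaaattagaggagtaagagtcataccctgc
Gstm7: cactgggttactgggacatccGTGGGGTGA
Gstm6: tgggatatccGTGGAGTGAgtgggaggttg
None of these 3 genes passed the limma threshold. Ugt1a5 differed by −0.34 (95% interval −0.78 to 0.10), Gstm7 by −0.18 (−0.55 to 0.19) and Gstm6 by 0.03 (−0.55 to 0.61). With KO replicate 2 dropped these values were −0.10, 0.01 and 0.37.

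Matches to the antioxidant core fell in Gsta3, Gstm5 and Gstm7. They are shown for Gsta3 (plus strand, chr1:21240435-21240524), Gstm5 (plus strand, chr3:107895764-107895853) and Gstm7 (minus strand, chr3:107931725-107931754), with the match in capitals.
Gsta3: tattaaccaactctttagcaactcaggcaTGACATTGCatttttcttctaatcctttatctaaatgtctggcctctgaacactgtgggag
Gstm5: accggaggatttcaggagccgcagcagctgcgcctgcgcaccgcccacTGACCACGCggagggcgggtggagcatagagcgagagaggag
Gstm7: gtctgaagaccTGACAAAGCgaagccaatc
In KO replicate 2 these 3 genes lay at −0.46, −0.24 and −0.36 relative to the WT mean on the log2(FPKM + 1) scale. In KO replicate 1 they lay at 0.27, 0.14 and 0.01. The medians of all measured Gsta and Gstm genes were −0.72 and −0.60 in KO replicate 2, and 0.25 and 0.12 in KO replicate 1.

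Other genes of the conjugation pathway were taken from 7 lists, and no gene of these lists passed the limma threshold. A list of genes around UDP-glucuronic acid also held genes that do not supply it, such as Gusb, Uxs1, Gulo, Akr1a1 and Rgn. Of its 11 measured genes 5 were lower by sign (all genes 45.4%) and 6 higher, so the count does not describe supply alone. Ugp2, which makes UDP-glucose, had 98.1 and 92.1 FPKM in WT against 79.3 and 63.3 FPKM in KO (log2 difference −0.42, or −0.26 with KO replicate 2 dropped), and Slc35d2, a nucleotide sugar transporter, 22.2 and 18.9 FPKM in WT against 17.6 and 13.1 FPKM in KO. Among genes of sulfate supply and sulfatases, 8 of 12 were lower by sign (all genes 45.4%). The sulfate transporter gene Slc26a1 had 63.9 and 46.8 FPKM in WT against 40.2 and 35.9 FPKM in KO. The PAPS synthase genes differed in sign, with Papss2 at 32.6 and 27.1 FPKM in WT against 25.3 and 22.6 FPKM in KO and Papss1 at 8.47 and 8.42 FPKM in WT against 9.01 and 10.6 FPKM in KO.

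Genes of glutathione supply and recycling had a median log2 difference of −0.02 (7 of 11 lower by sign, all genes 45.4%). Chac1, which degrades glutathione, had 0.617 and 1.13 FPKM in WT against 0.825 and 4.36 FPKM in KO, high in KO replicate 2 alone. The list of other glutathione transferases also held genes with only a GST-like domain, such as Eef1g and Clic1. Its measured genes (Mgst1, Mgst3, Gstz1, Gstcd, Eef1g, Clic1 and Clic4) had a median of −0.00 (4 of 7 lower by sign, all genes 45.4%). In KO replicate 2 the medians of these lists relative to the WT mean were −0.07 and −0.09, while that of the 18 GST was −0.53. That library was still the lowest of the 4 for 7 of 11 and 6 of 7 genes of these lists (all genes 26.8%). The list of other conjugating enzymes also held the epoxide hydrolase genes Ephx1 and Ephx2. In it 12 of 18 were lower by sign (all genes 45.4%), and 6 had both KO libraries below both WT libraries (all genes 16.4%). As3mt, the arsenite methyltransferase gene, had 29.3 and 25.9 FPKM in WT against 15.8 and 15.5 FPKM in KO (log2 difference −0.78, limma adjusted p = 0.15). The methyltransferase gene Inmt had 201 and 164 FPKM in WT against 129 and 132 FPKM in KO, and Hnmt, which methylates histamine, 13.1 and 14.1 FPKM in WT against 9.50 and 10.7 FPKM in KO.

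The list of sensors and regulators, which also held Por, was divided, with 7 of 14 lower by sign (all genes 45.4%) and 7 higher. Nfe2l2, which encodes NRF2, had 30.5 and 22.8 FPKM in WT against 24.6 and 16.9 FPKM in KO, lowest in KO replicate 2. Nr1h4, the bile acid receptor gene, had 67.4 and 48.1 FPKM in WT against 44.8 and 34.5 FPKM in KO when its rows were summed. Por, the electron donor of cytochromes P450, had 37.5 and 36.8 FPKM in WT against 45.01 and 57.0 FPKM in KO (log2 difference 0.44, limma adjusted p = 0.54, or 0.27 with KO replicate 2 dropped). Among efflux pumps 2 of 6 were lower by sign (all genes 45.4%). Abcc2, which exports conjugates into bile, had 54.3 and 49.0 FPKM in WT against 43.3 and 40.1 FPKM in KO, and Abcc3, which exports them into blood, 44.3 and 48.3 FPKM in WT against 50.1 and 51.2 FPKM in KO.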

How the data were processed

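RNA from whole mouse liver was sequenced in 4 libraries (2 WT, 2 KO), grouped and numbered by their titles. The authors deposited FPKM per RefSeq transcript, per the file headers. Bowtie, TopHat and mm10 are named in the submitters' processing notes, with the FPKM program, annotation release and use of strand not given in the sources used here. There were 33170 table rows. Rows were summed per gene, so that Gsta3 and Gstm4, the measured members with several rows, are single values. KO was tested against WT with limma 3.58.1 (R 4.3.3, intensity trend, log2(FPKM + 1), genes averaging 1 FPKM or more), and p-values were adjusted by Benjamini-Hochberg over all of them, after the test was run on simulated data. Intervals are 95%. No permutation test was used, since 2 against 2 libraries allow no exact two-sided p smaller than 0.333.

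Depth was estimated from steps of low FPKM values, using GENCODE M21 transcript lengths. Between 54.2% and 57.3% of them lay within 0.1 of a whole fragment, too few for a count test, so fragment numbers are approximate. FPKM of paralogs depends on how shared fragments were assigned. Stretches of 50 bases were compared with all GENCODE protein-coding transcripts of other genes. The motifs were searched in RefSeq promoter windows.

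Values per library are given for the 6 members of each family with the highest mean, the 4 with the smallest p, those past the threshold and those with non-overlapping groups and a log2 difference of at least 0.5, and up to 3 genes per pathway list. Values of Gsta1, Gstm3, Gsto1, Gstt2, Ugt1a6a, Ugt1a6b, Ugt2a3, Ugt3a1, Sult1e1 and the within-family shares were added after their values were seen. The members, lists, tests and rules were chosen with earlier results of these data known. Settings changed in turn were the pseudocount (0.1, 0.5), the filter (none, or 5 FPKM), the scaling (quantile, upper-quartile), the trend (off), a block for the replicate number, unsummed transcripts, and each library (left out). Sums over Gstp1 and Gstp2 and over Ugt1a were added after the data were seen. Figures were made with python 3.11.15 and matplotlib 3.10.9.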

Additional observations from a re-analysis of the deposited data

How the results depend on the processing

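No conjugation gene passed the limma threshold under any setting that kept all 4 libraries. With a library left out, members past the threshold ranged from 0 to 11, with 11 when KO replicate 1 was dropped and 1 (Ugt1a9) when KO replicate 2 was. Over all genes the count of 7 was 11 with a pseudocount of 0.1, 0 without a filter, 3 at a minimum of 5 FPKM and 4 with quantile scaling. With a library left out it ran from 1 (WT replicate 1 dropped) to 306 (KO replicate 1 dropped). The replicate numbers are not stated to pair the libraries, and deviations of same-numbered libraries correlated at 0.167 over all genes and at 0.765 over the 38 members. With the replicate number as a block 19 genes passed, none of them a conjugation gene.

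On leaving out a library the GST median ran over −0.526 to 0.0447, the UGT median over −0.278 to −0.00175 and the SULT median over −0.216 to −0.0587. Srebf1 kept its direction (−2.96 to −2.68, and −2.82 without a filter), and its adjusted p missed the threshold without a filter and without either WT library.

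Of 337 values of named members under alternatives 322 kept their sign. The sign turned for Sult1a1 with upper-quartile scaling (−0.00342) and for Sult2a7 with quantile scaling (−0.00607). With 1 library left out it turned for Gsta3 (−0.456 to 0.271), Gstk1 (−0.102 to 0.0528), Gstm1 (−0.661 to 0.119), Sult1a1 (−0.0446 to 0.0897), Sult1b1 (−0.204 to 0.0165), Sult2a7 (−0.261 to 0.295), Ugt1a1 (−0.0957 to 0.0395), Ugt2b1 (−0.483 to 0.121), Ugt2b36 (−0.278 to 0.0594) and Ugt2b5 (−0.629 to 0.0435), and among pathway genes for Chac1 (−0.0233 to 1.53) and Eef1g (−0.179 to 0.0138). The causes were not tested. Genes near 1 FPKM rest on few fragments, about 15 to 29 per library for Sult2a7.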
